A study of Mus musculus with 20 samples.

Results

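Public CDR3β sequences are T cell receptor (TCR) β junctions that recur, as amino acid sequences, in many mice. They were examined here in CD8 T cells of mice that differ in the specialised proteasomes of the thymus and of immune cells. A CDR3β sequence was counted as public when at least 1 unique molecule of it was found in 6 or more of 17 mice. By this rule 2617 of the 173865 distinct in-frame CDR3β sequences were public, which was 1.51%. The rule uses the presence of a sequence across mice, so presence and the number of mice are given as descriptions and were not tested.

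TCRβ transcripts were sequenced from CD8 T cells of individual male mice aged 9 to 12 weeks, all on the B6 background. WT mice carried both specialised catalytic subunits, β5t of the thymoproteasome (gene Psmb11, chromosome 14: 54858890 to 54867013) and β5i of the immunoproteasome (gene Psmb8, chromosome 17: 34416690 to 34420428). β5i-KO mice lacked β5i and β5t-KO mice lacked β5t. BIT mice carried the β5t coding sequence at the β5i locus, so that β5t was made in the place of β5i. The sort gate is labelled TCRβ-high, CD4-negative and CD8-positive, the labels name lymph nodes and the protocol names lymph nodes and spleens, and a TCR library does not measure CD4, CD8 or the proteasome genes, so neither gate nor genotype could be checked against these data. Each genotype is labelled with 5 mice, of which the rule used 4 WT, 5 β5i-KO, 4 β5t-KO and 4 BIT animals. It left out WT replicate 5 (1 molecule), β5t-KO replicate 5 (47 in-frame molecules) and BIT replicate 3 (7312 in-frame molecules). The comparison of genotypes asks how far the peptides made by each proteasome bear on the CD8 repertoire. All positions in the text are those of GRCm39.

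The CDR3β is the part of the receptor that is built anew in each developing T cell. A V, a D and a J gene segment are cut, trimmed at their ends and joined, and the enzyme terminal transferase (TdT) adds untemplated nucleotides at both joints. The loop so made faces the peptide that the T cell is selected on, which in the thymic cortex is made with the help of the thymoproteasome. Because several codons spell the same residue and many V segments end alike, one amino acid sequence can arise from different joins in different cells.

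The libraries held 614169 to 2856711 reads and 7669 to 143170 in-frame molecules, and in-frame clones took 96.7% to 98.3% of the reads. The number of distinct CDR3β sequences ran from 383 in β5t-KO replicate 2 to 36149 in β5i-KO replicate 3. Depth was unequal between genotypes, with a total of 113931 in-frame molecules in β5t-KO, 238146 in WT, 335003 in β5i-KO and 333542 in BIT mice. The limit given beside a count of 0 is that of 3 molecules and covers counting error only. No 2 of the 17 libraries held identical values.

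The sequences themselves show how public junctions were built. Four-letter starts such as CASS come from the V segment, and the ends of the junctions (YEQYF, for example) come from the J segment. The germline segments that recur in the examples below are the 2 Dβ segments and Jβ2.7, as the reference genome gives them, all on the plus strand of chromosome 6.
TRBD1, 41510135 to 41510146: gggacagggggc
TRBD2, 41519097 to 41519110: gggactgggggggc
TRBJ2-7, 41520744 to 41520790: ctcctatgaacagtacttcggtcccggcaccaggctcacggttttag

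The most widely shared sequence was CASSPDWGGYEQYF, found in 16 of the 17 mice. It was spelled by 27 nucleotide sequences from 12 V genes, all with TRBJ2-7. The 2 nucleotide versions found in most mice are shown with added nucleotides in capitals. Bases that reach past the untrimmed end of a segment, where palindromic bases lie, were assigned to that segment in the tables and are in lower case.
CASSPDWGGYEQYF in 8 mice, mainly TRBV4: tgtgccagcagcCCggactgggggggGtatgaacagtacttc
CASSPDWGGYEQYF in 5 mice, mainly TRBV3: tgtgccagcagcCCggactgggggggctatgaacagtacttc
TRBD2 was the assigned D segment of both versions, in the frame that gives aspartate, tryptophan and glycine.

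A second sequence, called Ser-GTGG here for the residues between its CASS start and its YEQYF end, was found in 15 mice, and its 43 nucleotide sequences from 14 V genes again all carried TRBJ2-7. Here TRBD2 was read in a different frame, giving glycine, threonine and glycine. Its 4 most shared versions differ in V segment, D segment and added nucleotides but spell the same protein.
Ser-GTGG in 10 mice, mainly TRBV4 and TRBD2: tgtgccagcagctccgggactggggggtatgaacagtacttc
Ser-GTGG in 6 mice, mainly TRBV4 and TRBD2: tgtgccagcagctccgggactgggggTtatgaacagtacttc
Ser-GTGG in 6 mice, TRBV16 and TRBD2: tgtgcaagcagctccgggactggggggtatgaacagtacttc
Ser-GTGG in 6 mice, mainly TRBV14 and TRBD1: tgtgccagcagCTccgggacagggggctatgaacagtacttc
The version in 10 mice and the one from TRBV16 had no added nucleotide, and the one from TRBD1 had 2. Each of the 4 had 2 palindromic bases before its D segment.

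The sequence with the most nucleotide versions was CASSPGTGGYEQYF, with 58 versions from 15 V genes in 14 mice. Its most shared version was found in 10 mice and had 3 palindromic bases and no other added nucleotide.
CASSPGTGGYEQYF in 10 mice, mainly TRBV4 and TRBD2: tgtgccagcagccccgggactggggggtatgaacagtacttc
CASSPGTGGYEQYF in 7 mice, mainly TRBV4 and TRBD2: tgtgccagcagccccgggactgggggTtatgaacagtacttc
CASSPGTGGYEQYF in 6 mice, mainly TRBV3 and TRBD2: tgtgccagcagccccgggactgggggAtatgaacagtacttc
The other 2 versions had 1 added nucleotide each beside 3 palindromic bases.

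A simpler kind of public junction had no assigned D segment at all. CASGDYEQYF, 10 residues long, was found in 12 mice with 4 nucleotide sequences, and none of its clones carried an added nucleotide. All came from TRBV13-2 joined to TRBJ2-7.
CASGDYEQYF in 10 mice, TRBV13-2: tgtgccagcggtgactatgaacagtacttc
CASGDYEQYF in 8 mice, TRBV13-2: tgtgccagcggtgattatgaacagtacttc
Both were made of V and J bases alone, with no palindromic base.

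Most sequences were private, and the number of sequences fell steeply with the number of mice. There were 144425 sequences found in 1 mouse, 1631 in 5 mice and 969 in exactly 6 mice. Of the public sequences, 1967 were found in 6 to 8 mice, 514 in 9 to 11 mice and 136 in 12 to 16 mice. None was found in all 17.

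**Figure D1:**
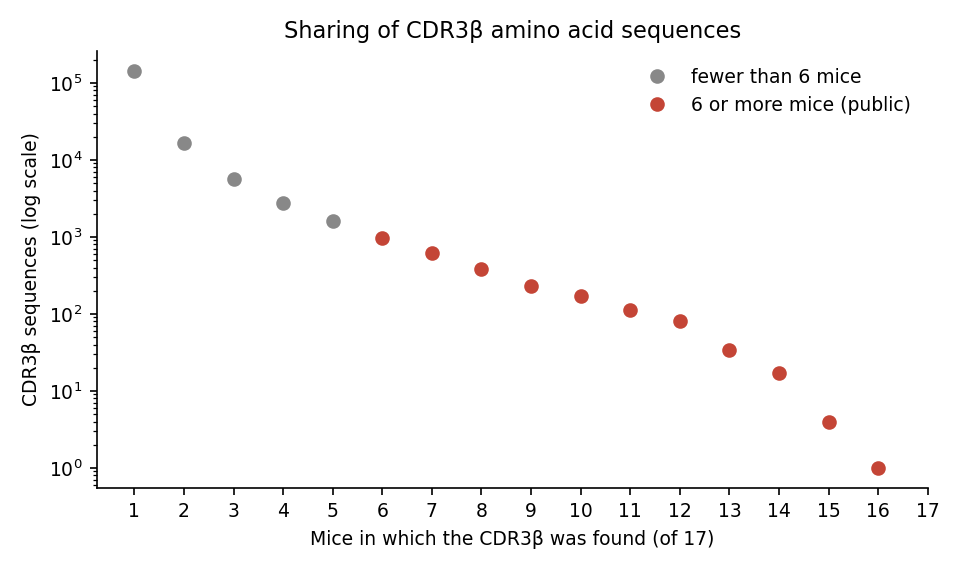
Number of distinct in-frame CDR3β amino acid sequences (vertical axis, log scale) by the number of mice, of 17, in which each was found (horizontal axis). Grey points are sequences found in fewer than 6 mice and red points the public sequences, which fall from 969 at 6 mice to 1 at 16 mice.

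On both sides of the threshold the most abundant sequences were high in the same library. The 2 most abundant at exactly 6 mice were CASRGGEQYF and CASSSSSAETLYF, with means over the 17 mice of 0.0472% and 0.0404% of molecules. The 2 most abundant at exactly 5 mice were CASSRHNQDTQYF and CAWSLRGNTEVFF, with means of 0.102% and 0.0661%. In all 4 the level in β5t-KO replicate 2, the library with the fewest molecules, was far above every other mouse, from 0.665% to 1.71%.

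The public sequences carried few added nucleotides. Added nucleotides were counted as bases between the V and J parts that were not assigned to D, so palindromic bases, which the tables place inside the segments, were left out of the count. Clones of public sequences carried a mean of 1.63 added nucleotides and those of all other sequences 3.19. No added nucleotide was seen in 35.4% of public clones and in 12.4% of other clones. The share of clones without added nucleotides was higher for public than for other sequences within each of the 17 mice, at 33.5% to 50.0% against 11.5% to 16.1%. At least 1 clone without an added nucleotide was found for 1896 public sequences (72.4%). For 43 sequences no clone carried any. With palindromic bases counted as added, a definition tried after seeing the data, the means were 2.67 and 4.38 and the clones without any were 17.2% and 4.83%. That share was again higher for public sequences in each mouse, at 15.4% to 29.2% against 3.91% to 7.07%, and 14 public sequences had neither kind of base in any clone.

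Among these 43, the sequences in most mice were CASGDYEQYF in 12 mice, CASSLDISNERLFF in 11 mice and a sequence of 15 residues in 10 mice. The latter pair both ended in the residues of TRBJ1-4 and kept that J segment untrimmed, with 14 nucleotide sequences from 5 V genes for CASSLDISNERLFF and 12 from 8 V genes for the longer one.

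The mean number of added nucleotides fell at every step of sharing. It was 3.65 for sequences in 1 mouse, 2.57 in 2 mice, 2.13 in 3 to 5 mice, 1.74 in 6 to 8 mice, 1.51 in 9 to 11 mice and 1.43 in 12 to 16 mice. Trimming did not follow one direction. Public clones had lost slightly fewer bases from the J segment (mean 2.47 against 2.85, lower in 16 of 17 mice) and slightly more from the V segment (2.86 against 2.59, higher in 17 of 17 mice).

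**Figure D2:**
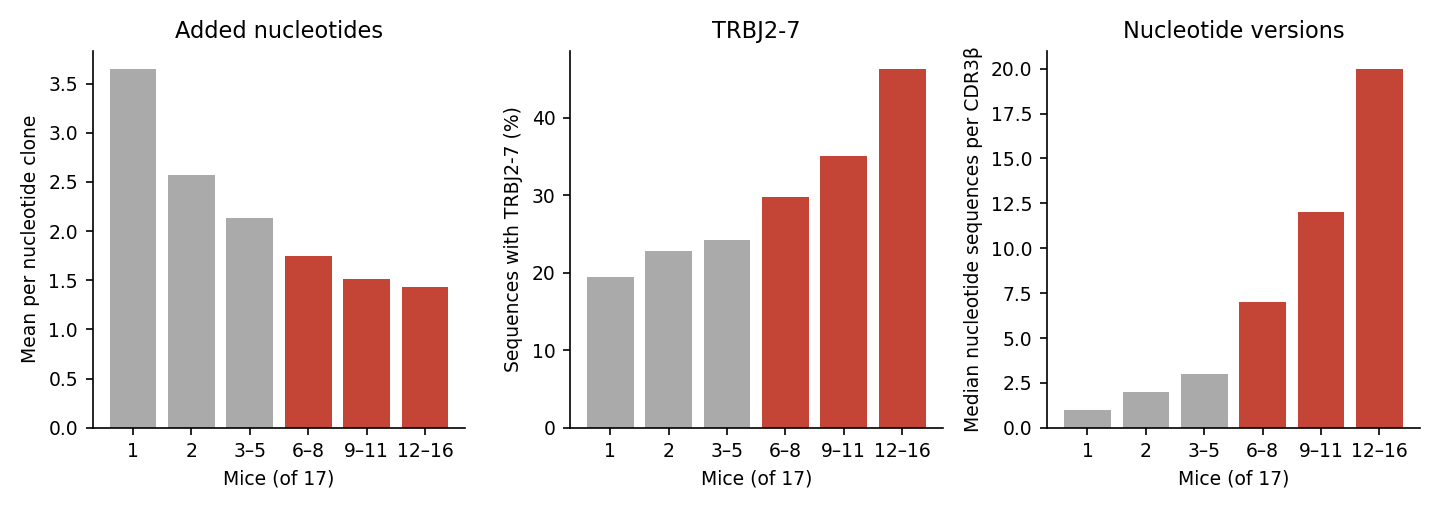
Mean added nucleotides per nucleotide clone, percent of sequences with TRBJ2-7 and median number of nucleotide sequences per CDR3β (3 panels), by the number of mice, of 17, in which a sequence was found. Grey bars are sequences in fewer than 6 mice and red bars public sequences. Added nucleotides fall from 3.65 to 1.43, TRBJ2-7 rises from 19.5% to 46.3%, and nucleotide versions rise from 1 to 20.

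Public sequences were short. Their mean length was 13.2 ± 1.31 residues (SD over 2617 sequences) against 14.1 ± 1.52 for the 171248 others, and their median was 13 against 14. They ranged from 8 to 16 residues and none was longer, although other sequences reached 26. Junctions of 15 or more residues made up 14.3% of public and 41.0% of other sequences. Junctions of 12 or fewer made up 29.5% and 14%.

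Public sequences were reached through many nucleotide sequences. The median was 8 nucleotide sequences and 5 V genes per public sequence, but 1 J gene, and only 4 public sequences had a single nucleotide sequence. Sequences in more mice are made of more clones, so this count rises with sharing by its construction. Within single mice, public sequences had 1.05 to 2.24 nucleotide sequences on average and other sequences 1.01 to 1.07. The public value was higher in 17 of 17 mice. A sequence made of more clones is also found more readily in a mouse, so the rule bears on these values too, and they are a description.

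Few single nucleotide sequences reached 6 mice themselves. Of the 23634 nucleotide sequences behind the public set, 17790 (75.3%) were found in 1 mouse and 261 (1.10%) in 6 or more mice. Of all 240430 in-frame nucleotide sequences, 5.32% were found in 2 or more mice and 0.109% in 6 or more. A nucleotide sequence in 6 mice makes its CDR3β public, so the rule bears on this contrast. The most shared nucleotide sequence of a public CDR3β was in a median of 3 mice. One nucleotide sequence in 6 or more mice was found for 214 public sequences (8.18%). For 317 (12.1%) every mouse had nucleotide sequences of its own. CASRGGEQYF was of the latter kind, with 8 nucleotide sequences in 6 mice and none in more than 1. At the other end, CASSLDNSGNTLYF had 1 nucleotide sequence in 10 of its 11 mice.

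The public set was rich in one J segment. TRBJ2-7, the last Jβ segment, was used by 828 public sequences (31.6%) and 20.1% of others. It made up 34.4% ± 2.37 of the nucleotide clones of public sequences and 20.7% ± 1.17 of other clones (SD, n = 17), and was higher in 17 of 17 mice. Among the 136 sequences found in 12 to 16 mice the share was 46.3%. Of the other frequent J segments, TRBJ2-1 (360 sequences), TRBJ2-5 (298), TRBJ1-1 (271) and TRBJ2-4 (227) had ratios of public to other clone percentages of 1.07, 0.996, 0.993 and 0.913. The public percentage was the higher in 11, 5, 8 and 2 of 17 mice, in that order. Named after their values were seen, TRBJ1-2 (ratio 0.967), TRBJ1-3 (0.725), TRBJ2-3 (0.794), TRBJ1-4 (0.461) and TRBJ2-2 (0.427) were higher in 5, 3, 1, 0 and 0 of 17 mice.

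The least used J segments, named here after their values were seen, were TRBJ1-5 with 16 public sequences and TRBJ1-6 with 15. They made up 0.477% ± 0.269 and 0.388% ± 0.224 of public clones against 2.45% ± 0.271 and 2.37% ± 0.365 of other clones (SD, n = 17), and were lower in 17 of 17 mice. All 12 J segments seen had at least 1 public sequence. TRBD1 was assigned in 32.8% of public clones and 42.9% of others, and TRBD2 in 36.0% and 33.7%.

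**Figure D3:**
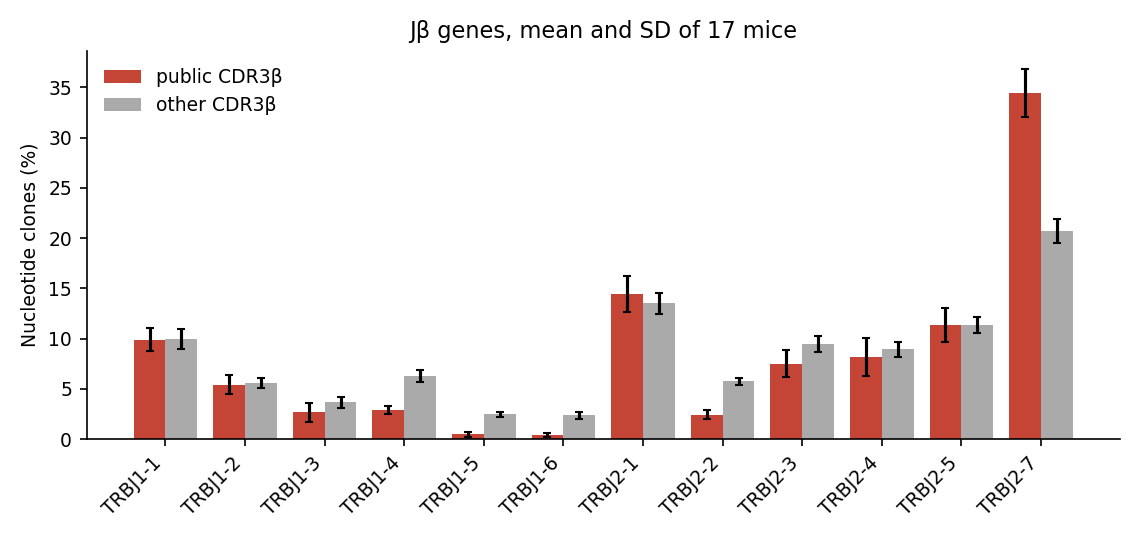
Percent of nucleotide clones that carried each Jβ gene, for public CDR3β (red) and other CDR3β (grey). Bars are means and error bars SDs of 17 mice. TRBJ2-7 stands at 34.4% of public and 20.7% of other clones, and TRBJ1-5 and TRBJ1-6 are below 1% of public clones.

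Many V genes contributed, and each public sequence could be counted for several. The 5 V genes with the most public sequences were TRBV16 (1701, or 65.0%), TRBV15 (1294), TRBV3 (1236), TRBV4 (1198) and TRBV12-1 (1117). TRBV16 made up 16.8% ± 2.88 of public clones and 12.2% ± 2.54 of others. The largest relative excess among these 5 was that of TRBV12-1, at 7.25% ± 3.44 against 3.56% ± 1.72, a ratio of 2.04 (SD, n = 17, higher in 17 of 17 mice). TRBV3 was higher in 16 of 17 mice and the other 4 in all 17.

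TRBV12-1 varied widely between mice of each genotype. Its percentage of public clones was 12.9, 6.84, 13.4 and 3.14 in WT replicates 1 to 4, and its range was 1.95% to 10.0% in β5i-KO, 1.79% to 9.72% in β5t-KO and 4.85% to 8.80% in BIT mice. The ranges of the 4 genotypes overlapped, and its percentage of other clones spanned 0.912% to 6.75% in the same mice.

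TRBV31, which lies downstream of the J segments in the opposite orientation (41534627 to 41535386, minus strand), had 8 public sequences. It made up 0.198% of public clones and 3.07% of others and was lower in 17 of 17 mice. TRBV22, TRBV23, TRBV25 and TRBV30 had none, and of these TRBV23 and TRBV30 were not rare, at 1.59% and 0.793% of other clones. TRBV1 (34 public sequences) and TRBV20 (9), named after their values were seen, were also lower in 17 of 17 mice.

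The first residues followed the V genes. CASS opened 2242 public sequences (85.7%) and 63.5% of others, and CASG opened 215 (8.22% against 11.4%). Starts that belong to single V genes were rare in the public set. CTCS, of TRBV1, opened 1.30% against 5.05%, CGAR, of TRBV20, 0.344% against 2.38%, and CAWS, of TRBV31, 0.191% against 2.52%.

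In the middle of the junction, taken as all residues but the first 4 and the last 4, public sequences held more tyrosine (6.74% of residues against 4.36%), leucine (6.99% against 5.38%) and glycine (24.4% against 21.7%). This middle still holds residues of the J segment, among them the first tyrosine of the YEQYF end. TRBJ2-7 was used by 31.6% of public and 20.1% of other sequences, so J use bears on the tyrosine values. How much of the tyrosine difference it makes up was not computed. They held less histidine (0.146% against 0.823%), lysine (0.176% against 0.749%) and methionine (0.0220% against 0.283%), and no cysteine. The run DWG, a reading of TRBD2, was in the middle of 9.86% of public and 4.79% of other sequences. These are shares over sequences, which are not replicates, and no test was made.

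Public sequences took up a similar part of each repertoire. They made up 145109 of the 1020622 in-frame molecules. The percentage by mouse was lowest in β5i-KO replicate 1 at 12.95%, had a median of 14.7%, and was highest in β5t-KO replicate 2 at 20.2%. WT mice averaged 14.9% ± 0.888 and BIT mice 14.2% ± 0.714 (SD, n = 4 each), β5t-KO mice 16.7% ± 2.64 (SD, n = 4) and β5i-KO mice 14.2% ± 0.932 (SD, n = 5). The ranges overlapped. The percentage of distinct sequences that were public depended on how many sequences a library held, from 17.2% in the smallest library to 6.16% in β5i-KO replicate 1. A share of molecules does not tell more cells from more TCRβ RNA per cell.

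**Figure D4:**
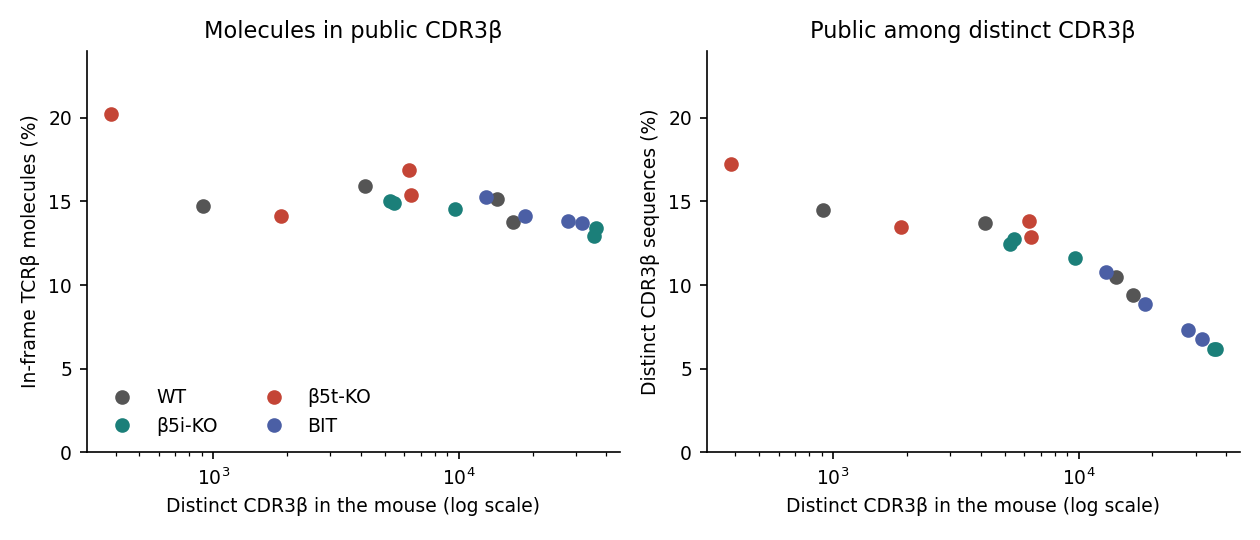
Percent of in-frame TCRβ molecules in public CDR3β (left) and percent of distinct CDR3β sequences that were public (right) in each of the 17 mice, against the number of distinct CDR3β in the mouse (log scale). Points are mice, coloured by genotype. The left values stay between 12.95% and 20.2%, and the right values fall to 6.16% in the largest libraries.

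To test the share of molecules between genotypes, the shared sequences were chosen in mice other than those compared. For each pair of genotypes, they were the sequences found in 3 or more mice of the other 2 genotypes. None of the 6 comparisons passed the exact permutation test (two-sided, adjusted p 0.57 to 0.83 over the 6). The closest was BIT against β5i-KO, in which 1118 sequences averaged 6.88% ± 0.179 of molecules over 4 BIT mice and 6.61% ± 0.221 over 5 β5i-KO mice (both SDs), with an exact permutation p of 0.0952. The 4 BIT mice were at 7.03%, 6.85%, 6.997% and 6.64%, and the 5 β5i-KO mice at 6.45%, 6.90%, 6.76%, 6.37% and 6.59%, so the ranges overlapped. For β5t-KO against WT, 8818 sequences made up 23.0% ± 4.17 and 20.99% ± 1.25 of molecules (SD, n = 4 each, exact permutation p 0.486), a difference of 2.03 percentage points that was 0.114 without β5t-KO replicate 2. BIT and WT mice stood at 12.7% ± 0.345 and 12.6% ± 0.449 (SD, n = 4 each, exact permutation p 0.83).

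Added nucleotides in public sequences were lowest in β5t-KO mice. The mean per public clone was 1.47, 1.14, 1.53 and 1.54 in the 4 β5t-KO mice. It was 1.71, 1.61, 1.61 and 1.64 in WT, 1.70, 1.60, 1.68, 1.70 and 1.64 in β5i-KO, and 1.60, 1.62, 1.57 and 1.66 in BIT mice. All 4 β5t-KO mice lay below all 13 other mice, while the other 3 genotypes overlapped one another.

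The β5t-KO mean minus the WT mean was −0.22 added nucleotides and minus the β5i-KO mean −0.25, and the BIT mean minus the β5t-KO mean was 0.19. In the same order, the exact permutation p was 0.0286, 0.0159 and 0.0286 (two-sided), which are the smallest that these numbers of mice can give, and the adjusted p over 6 comparisons was 0.0571 in each, so none passed. The remaining 3 comparisons had adjusted p of 0.143 to 0.524 by the same exact test. Clones without added nucleotides made up 42.6% ± 4.98 of public clones of β5t-KO mice, 35.5% ± 0.996 of those of WT mice and 36.0% ± 0.949 of those of BIT mice (SD, n = 4 each), and 34.2% ± 0.826 of those of β5i-KO mice (SD, n = 5).

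In the other sequences, those in fewer than 6 mice, the β5t-KO mice did not lie apart. Their mean was 2.97, 3.28, 3.06 and 3.22 added nucleotides in the 4 β5t-KO mice and 3.15 to 3.25 in WT. The BIT mice, at 3.13 to 3.19, lay below all β5i-KO mice, at 3.21 to 3.25, and no comparison passed the exact permutation test (two-sided, adjusted p 0.0952 to 0.629 over 6 comparisons). Whether public and other sequences differed in this respect was not tested.

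Depth and sharing varied between the libraries. In-frame molecules per mouse ran from 7669 to 43803 in β5t-KO, 8088 to 124170 in WT, 14640 to 139509 in β5i-KO and 40137 to 143170 in BIT. The public sequences found in a mouse had been found in 8.43 to 8.87 mice on average for β5t-KO, 8.04 to 8.92 for WT, 7.76 to 8.61 for β5i-KO and 7.81 to 8.16 for BIT. This sharing was 8.21 in β5i-KO replicate 4 (14640 molecules) and 8.87 in β5t-KO replicate 4 (34681 molecules). Averaged over the mice of a genotype, this sharing was 8.65 in β5t-KO, 8.39 in WT, 8.16 in β5i-KO and 7.97 in BIT. WT replicate 1, with 8088 molecules, 139 public clones and the widest sharing of the 17 mice (8.92), had 1.71 added nucleotides per public clone. Over the clones of all 17 mice, added nucleotides fell with sharing, from 1.74 in 6 to 8 mice to 1.43 in 12 to 16 mice. The bearing of depth and sharing on the β5t-KO values, and the cause of those values, were not tested. In 3 alternatives added after seeing the data, thinning, the definition of added nucleotides and the choice of sequences were changed. With all libraries thinned to 7669 molecules the 4 β5t-KO mice were still lowest, with adjusted exact permutation p of 0.0571 against each genotype. With palindromic bases counted, the mean was 2.34 ± 0.237 in β5t-KO and 2.62 ± 0.1199 in WT mice (SD, n = 4 each) with overlapping ranges (adjusted exact permutation p 0.171), and the β5t-KO mice remained below all β5i-KO and BIT mice (adjusted p 0.0857 each). Weighted by molecules instead of counted once per clone, the β5t-KO mean was 1.46 ± 0.242 and the WT mean 1.62 ± 0.111 (SD, n = 4 each), and the ranges overlapped. Over clones with an assigned D segment alone, β5t-KO minus WT was −0.133 (exact permutation p 0.0571, adjusted p 0.114). By the same measure BIT minus β5t-KO was 0.158 (adjusted exact permutation p 0.0857). Without β5t-KO replicate 2, which had 72 public clones, the 3 differences were −0.13 (from WT), −0.15 (from β5i-KO) and 0.0999 (BIT minus β5t-KO), with adjusted exact permutation p of 0.114 each. When sequences were instead chosen by their presence in 4 or more mice of the other 3 genotypes, the differences were −0.16 (from WT), −0.12 (from β5i-KO) and 0.0563 (BIT minus β5t-KO, overlapping ranges), with adjusted exact permutation p of 0.0857, 0.0857 and 0.314.

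**Figure D5:**
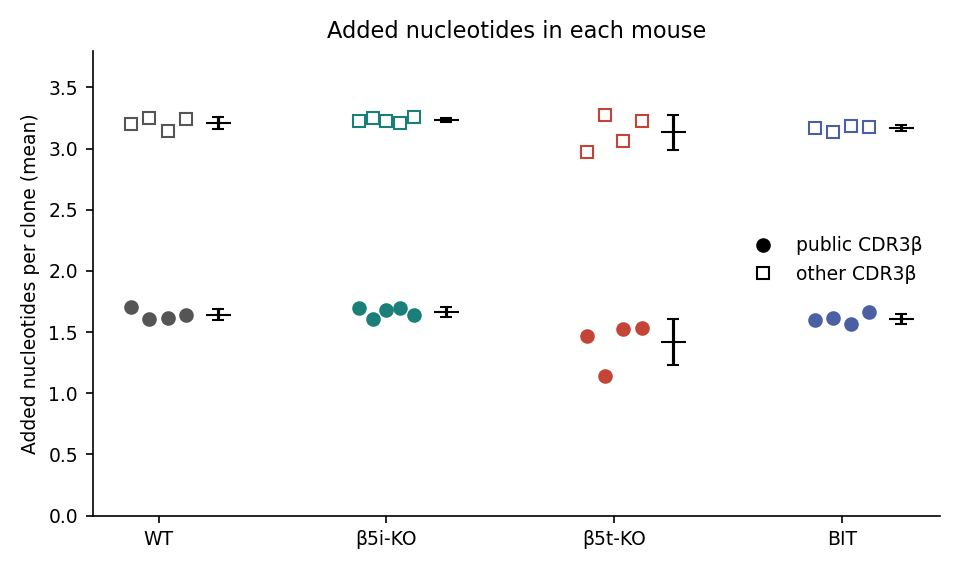
Mean added nucleotides per nucleotide clone in each mouse, for public CDR3β (filled circles) and other CDR3β (open squares), by genotype. Black bars are group means with SD (n = 4 WT, 5 β5i-KO, 4 β5t-KO, 4 BIT). Public values lie near 1.6 added nucleotides except in β5t-KO mice, at 1.14 to 1.54, and other values lie between 2.97 and 3.28.

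The length of public sequences did not separate the genotypes. WT mice averaged 13.2 ± 0.0640 residues, β5t-KO mice 13.1 ± 0.0846 and BIT mice 13.2 ± 0.0245 (SD, n = 4 each), and β5i-KO mice 13.2 ± 0.0369 (SD, n = 5), with adjusted exact permutation p of 0.743 to 0.971 over 6 comparisons (two-sided).

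TRBJ2-7 was frequent in the public sequences of every genotype, with 34.2% ± 1.57 of the public clones of WT mice, 34.1% ± 4.25 of those of β5t-KO mice and 35.6% ± 2.06 of those of BIT mice (SD, n = 4 each), and 33.9% ± 1.38 of those of β5i-KO mice (SD, n = 5). The ranges overlapped, and the genotypes were not tested for it.

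All 4 genotypes held 1287 of the public sequences (49.2%). A further 1206 (46.1%) were in 3 genotypes, 124 (4.74%) in 2 and 0 in 1 genotype alone. Of the 124, 120 were found in β5i-KO and BIT mice. Sequences missing from β5t-KO mice numbered 1102 (42.1%), from WT 320 (12.2%), from β5i-KO 17 and from BIT mice 15. The 2 genotypes with the fewest molecules lacked the most sequences. After thinning to 7669 molecules a mouse held 66 to 603 public sequences in β5t-KO, 131 to 742 in WT, 461 to 746 in β5i-KO and 712 to 753 in BIT mice. All distinct sequences left in a thinned mouse numbered 383 to 4062, 909 to 5695, 3551 to 6622 and 5549 to 6470, in that order. The public percentage of these distinct sequences was 13.7% to 17.2% in β5t-KO and 11.8% to 14.4% in WT. It was 10.9% to 12.98% in β5i-KO and 11.4% to 13.2% in BIT mice. The lower public counts of β5t-KO mice thus went with fewer distinct sequences of any kind.

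For each genotype, one sequence was absent from it and found in the most other mice. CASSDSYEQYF was found in 12 of the 13 mice that were not β5t-KO, at 0.00546% to 0.148% of molecules, and in 0 of 113931 β5t-KO molecules, which allows up to 0.00263%. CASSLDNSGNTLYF was found in 11 mice at 0.000903% to 0.0274% and in 0 of 238146 WT molecules, which allows up to 0.00126%. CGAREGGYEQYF, from TRBV20, was in 7 mice and in none of the β5i-KO mice, where a count of 0 allows up to 0.000896%. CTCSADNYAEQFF, from TRBV1, was in 6 mice and in none of the BIT mice, where it allows up to 0.000899%.

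The levels of single public sequences varied widely between mice of one genotype. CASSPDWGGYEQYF was at 0.321%, 0%, 0.0344% and 0.0145% of molecules in WT replicates 1 to 4. It was at 0.0190%, 0.0191%, 0.0158%, 0.0137% and 0.0597% in the β5i-KO mice. It was at 0.0137%, 0.209%, 0.0576% and 0.0375% in the β5t-KO mice and at 0.0272%, 0.0174%, 0.0448% and 0.0170% in the BIT mice. The highest values were those of the 2 shallowest libraries, WT replicate 1 and β5t-KO replicate 2, and the genotypes overlapped. The single mouse without it was WT replicate 2, in which a count of 0 allows up to 0.00990%.

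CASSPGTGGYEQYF had a lower highest value than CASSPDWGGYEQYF, 0.115% against 0.321%, but was found in fewer mice, 14 against 16. It was at 0%, 0.0561%, 0.0463% and 0.115% in WT, at 0.0497%, 0.0464%, 0.0831%, 0.0546% and 0.0746% in β5i-KO mice, at 0.100%, 0%, 0.0324% and 0% in β5t-KO mice, and at 0.0999%, 0.0473%, 0.0483% and 0.0466% in BIT mice. It was the most abundant public sequence once β5t-KO replicate 2 was left out, with a mean of 0.0563%.

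That library set the order of the top sequences. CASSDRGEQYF and Trp-TGG, a sequence called so here for the residues between its CASS start and the YAEQFF end of TRBJ2-1, had the highest means over the 17 mice, 0.0714% and 0.0701%, and both were at 0.978% in β5t-KO replicate 2, with 75 molecules each. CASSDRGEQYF was at 0% to 0.0597% in every other mouse and Trp-TGG at 0% to 0.0864%. Without β5t-KO replicate 2 their means were 0.0147% and 0.0133%, at ranks 113 and 146. Ser-GTGG followed with a mean of 0.0657%, or 0.0421% without β5t-KO replicate 2, in which it was at 0.443%.

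Of the 10 sequences in most mice, with ties at 14 mice (17 sequences) broken by the mean level over the 17 mice, the remaining ones were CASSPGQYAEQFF, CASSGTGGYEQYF and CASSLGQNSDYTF in 15 mice each, and Trp-TGG, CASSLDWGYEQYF, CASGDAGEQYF and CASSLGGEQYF in 14 each. Their means over the 17 mice ran from 0.0160% for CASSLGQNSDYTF to 0.0701% for Trp-TGG. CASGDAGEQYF stood apart from them in using 1 V gene, TRBV13-2, and in carrying 2 to 4 added nucleotides in every clone. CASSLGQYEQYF, in 13 mice, shared the second highest number of nucleotide sequences with Ser-GTGG, 43 each.

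Abundant sequences are found in more mice, so the rule itself favours them, and the following levels are a description of what it chose. Public sequences held 39 of the 100 and 453 of the 1000 sequences of highest mean level. Within mice, the mean number of molecules per sequence was higher for public than for other sequences in 17 of 17 mice, at 1.91 to 23.5 against 1.47 to 19.3. Per nucleotide clone the difference was smaller, and public clones were the larger in 14 of 17 mice.

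The level of each sequence was then tested between genotypes on molecule counts with edgeR's quasi-likelihood test over 12687 sequences, those found in 3 or more mice. All 2617 public sequences entered, and 0 of them were called in any of the 6 comparisons, where 0% of all sequences tested were called (Benjamini-Hochberg adjusted p under 0.05). At an unadjusted p under 0.05 there were 220 public sequences (8.41%) in β5i-KO against WT, where 16.1% of all sequences tested passed. The counts were 448 (17.1%, all 14%) in β5t-KO against WT and 216 (8.25%, all 18%) in BIT against WT. They were 40 (1.53%, all 12%) in BIT against β5i-KO, 302 (11.5%, all 7.45%) in BIT against β5t-KO and 376 (14.4%, all 10.7%) in β5t-KO against β5i-KO. The comparisons share groups and are not independent of one another. The public sequences were chosen by presence in 6 or more of the same mice, and the sequences tested by presence in 3 or more. The rule therefore bears on the difference between the public shares and those of all sequences, which is a description.

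The public sequence with the smallest p in each comparison failed the adjustment. For β5t-KO against WT it was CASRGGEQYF, with 0, 58, 3 and 0 molecules in the β5t-KO mice and 0 in every WT mouse (edgeR p 0.000751, adjusted p 0.319). For β5t-KO against β5i-KO it was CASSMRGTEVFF, with 23 molecules in β5t-KO replicate 2 and 0 in the other 8 mice (edgeR p 0.000325, adjusted p 0.360). For BIT against β5t-KO it was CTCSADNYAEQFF, with 0 in the BIT mice and 37, 0, 11 and 0 in the β5t-KO mice (edgeR p 0.00173, adjusted p 0.329). In the groups compared, the molecules of each of these sequences lay in 1 or 2 mice.

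For β5i-KO against WT the smallest p was that of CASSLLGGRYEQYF, with 9, 0, 1 and 5 molecules in WT and 0 in β5i-KO mice (edgeR adjusted p 0.296). For BIT against WT it was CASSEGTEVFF, with 0, 13, 4 and 10 in WT and 0 in BIT mice (edgeR adjusted p 0.270). For BIT against β5i-KO it was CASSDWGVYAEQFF, with 0 in BIT mice and 6, 0, 3, 0 and 24 in β5i-KO mice (edgeR adjusted p 0.389).

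DESeq2, run as an alternative, called 1 public sequence in β5t-KO against WT (0.00788% of the sequences tested), the same one in BIT against β5t-KO (0.00788%), and 3 in β5t-KO against β5i-KO (0.0236%). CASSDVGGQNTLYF was called in all 3 comparisons, with DESeq2 adjusted p of 4.80e-07, 2.83e-06 and 1.72e-11. It had 0 molecules in every β5t-KO mouse, 0, 0, 5 and 20 in WT, 136, 0, 10, 0 and 0 in β5i-KO, and 0, 0, 1 and 8 in BIT mice, so that most of its molecules came from β5i-KO replicate 1 and the groups overlapped at 0. The other 2, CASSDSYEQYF and a sequence of 15 residues from TRBV13-2, were found in all 5 β5i-KO mice and in no β5t-KO mouse (DESeq2 adjusted p 0.0457 each, edgeR adjusted p 0.360 each).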

How the data were processed

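The authors made TCR libraries with a SMARTer mouse TCR profiling kit from total RNA of sorted CD8 T cells. The clone tables carry the columns of MiXCR, whose version and settings are not given in the sources used here, and the submitters' processing notes name the build mm10. The deposited tables give the counts of reads and of unique molecules behind each TCRβ clone of a mouse, as whole numbers that the authors neither normalised nor pooled. TCRα tables were not used. The tables hold no coordinates, so positions and germline segments are those of GENCODE vM39 on GRCm39.

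Clones in frame and without a stop codon were summed per CDR3 amino acid sequence. Where a clone listed several V or J genes, the first was used. Added nucleotides were taken from the alignment points of each clone. Where no D was assigned, all bases between V and J counted as added. Palindromic bases lie inside the segment parts and were not counted. Of public clones whose D part began before the germline D, 87.2% had the exact palindrome there. Unique molecules remove amplification copies only as far as their tags were read without error, and libraries held 9.68 to 184 reads per molecule.

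Means were compared over mice with exact permutation tests (two-sided, Benjamini-Hochberg over 6 pairs of genotypes, SciPy 1.17.1). With 4 mice against 4 the smallest p is 0.0286, and with 4 against 5 it is 0.0159. Levels were tested with edgeR 4.0.16 (quasi-likelihood, in-frame molecules as library size, all 4 genotypes in one fit, threshold 0.05) in R 4.3.3, with DESeq2 1.42.0 as an alternative. On simulated data for β5t-KO against WT with 12687 sequences, the edgeR fit recovered 0 of 200 sequences changed 8-fold at the estimated median dispersion of 4.64, and 89 of 200 with the dispersion set to 0.2, with 0 false calls. The 200 were drawn from the most abundant sequences only, so these counts do not describe rarer ones. Other values used Python 3.11.15, NumPy 2.4.6 and pandas 2.3.3, and Matplotlib 3.10.9 drew the figures.

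The text names the 10 public sequences in most mice (ties by mean level), the 5 most abundant, the 3 with most nucleotide sequences, the one with the smallest p per comparison, the 2 most abundant at 6 and at 5 mice, the one absent from each genotype, the 3 in most mice without added nucleotides and those called by DESeq2. It names the 5 V and the 5 J genes with most public sequences, TRBV31 and genes with none. Sequences of 15 or more residues are not spelled out, and 2 others carry short names. The rule, the lists and the tests were chosen with earlier results of these data known. Nothing states that mice of one genotype came from separate litters, so the mice may not be independent, as the tests take them to be.

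Alternatives were other thresholds of sharing, 2 molecules per mouse, nucleotide identity, V and J with CDR3, reads, thinning, weighting, TMM normalisation, DESeq2, other filters, BIT replicate 3 included, a replicate block and each mouse left out.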

Additional observations from a re-analysis of the deposited data

Results flagged for a closer look

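BIT replicate 3, which took no part in choosing the public sequences, held 42 of them among its 400 distinct CDR3β sequences. They made up 10.9% of its 7312 in-frame molecules, below the 12.95% to 20.2% of the 17 mice that chose them. Its public clones carried 1.95 added nucleotides on average and its other clones 3.16, and the lengths were 13.3 and 14 residues. Of its 44 public nucleotide sequences, 25 had been found in the 17 mice.

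In 10 of 61 sets of mice, 1 mouse stood apart from the rest of its genotype by Dixon's test, where chance gives about 1 in 20. The level of a sequence was left out in a genotype where any mouse was at 0. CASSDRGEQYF in β5t-KO mice, at 0.978% in replicate 2 and 0% in the others, was thus not among the sets. The tally therefore does not show which genotypes vary most. In BIT mice, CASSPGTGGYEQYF was at 0.0999% of molecules in replicate 1 against 0.0466% to 0.0483% in the others, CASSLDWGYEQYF at 0.0448% in replicate 2 against 0.0197% to 0.0212%, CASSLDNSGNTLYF at 0.0274% in replicate 2 against 0.00537% to 0.00908%, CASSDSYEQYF at 0.0349% in replicate 2 against 0.0125% to 0.0159%, and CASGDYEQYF at 0.0698% in replicate 4 against 0.00747% to 0.0147%. In β5i-KO replicate 5, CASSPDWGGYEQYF was at 0.0597% against 0.0137% to 0.0191%, and the mean length of public sequences was 13.1 residues against 13.2. In β5i-KO replicate 4, TRBV16 made up 21.2% of public clones against 13.2% to 15.2%. In β5t-KO replicate 2, TRBJ2-7 made up 27.8% of public clones against 36.1% to 36.4%, and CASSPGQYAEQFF was at 0.235% of molecules against 0.00228% to 0.0346%. That library had the fewest molecules.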

How the results depend on the processing

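The number of public sequences was set by the definition. It was 4248 with 5 or more mice, 1031 with 8 or more, 136 with 12 or more, 261 by nucleotide sequence, 777 by V gene, J gene and CDR3, and 410 with all libraries thinned to 7669 molecules. With 1 mouse left out it ran from 1866 (without β5i-KO replicate 3) to 2602.

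In the share of molecules in shared sequences, no comparison passed under any alternative. The sign turned for β5i-KO minus WT by nucleotide sequence (0.0157 percentage points). For BIT minus WT it turned with 4 or more of the other mice (−0.0247), by reads (−0.215), in distinct sequences after thinning (−0.518), under the 6-of-17 rule itself (−0.658) and with BIT replicate 3 included (−0.540). For BIT minus β5i-KO it turned in distinct sequences after thinning (−0.0637). With 1 mouse left out, BIT minus WT ran from −0.119 to 0.227 and BIT minus β5t-KO from −2.53 to 0.0629 (without β5t-KO replicate 2), while the other 4 comparisons kept their sign. Without β5t-KO replicate 2, β5t-KO minus WT fell from 2.03 to 0.114 and β5t-KO minus β5i-KO from 1.48 to 0.284.

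In added nucleotides, β5t-KO stayed below WT and β5i-KO under every alternative run. With BIT replicate 3 included, BIT minus β5t-KO (0.262) and β5t-KO minus β5i-KO (−0.247) passed, each with an adjusted exact permutation p of 0.0476. BIT replicate 3 held 44 public clones. The second comparison holds no BIT mouse, and its difference and exact permutation p of 0.0159 were those of the main run. Its adjusted p changed only because that of the first comparison, with an exact permutation p of 0.0159, entered the same adjustment. The sign turned for β5i-KO minus WT when weighted by molecules (−0.0118), thinned (−0.0397) or chosen from the other 3 genotypes (−0.0388), for BIT minus WT over clones with a D gene (0.0245) with BIT replicate 3 (0.0371) or with palindromic bases counted (0.0138), and for BIT minus β5i-KO with BIT replicate 3 (0.0144) or thinned (0.00932). In length it turned for β5i-KO minus WT in sequences of 8 or more mice (−0.00408), for BIT minus WT when weighted (−0.0474), in 8 or more mice (−0.0237) or thinned (−0.0305), for BIT minus β5i-KO with BIT replicate 3 (0.00296) and for BIT minus β5t-KO thinned (−0.00901). With 1 mouse left out, length ran from −0.0152 to 0.0345 for β5i-KO minus WT and from −0.0280 to 0.0216 for BIT minus WT. The cause of these changes was not tested.

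DESeq2 called 1 public sequence in β5t-KO against WT, 1 in BIT against β5t-KO and 3 in β5t-KO against β5i-KO, and edgeR called 0 public sequences with TMM, reads, other filters or any mouse left out. In the levels of sequences, mice with the same replicate number did not deviate together (correlations −0.0315 to 0.0296 over 22 pairs), and nothing in the labels pairs them, but in TRBV12-1 use replicate 4 was the lowest mouse of each genotype. With the replicate block, β5t-KO minus WT was −0.22 added nucleotides (exact permutation p 0.125, the smallest that 4 pairs can give), and edgeR called 0 public sequences. In simulated data for β5t-KO against WT, 8-fold changes of single sequences, drawn from the most abundant only, were recovered in 0 of 200 at the median dispersion of 4.64 and in 89 of 200 at a dispersion of 0.2.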

Other observations

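Clones out of frame or with a stop codon are carried along in the RNA without selection on their protein, and they gave almost no sharing at the nucleotide level. Of 7701 such nucleotide sequences, from 25889 molecules, 7 were found in more than 1 mouse, none in more than 2. Of 240430 in-frame nucleotide sequences, from 1020622 molecules, 12796 were found in 2 or more mice (5.32%), 261 in 6 or more, and the most widely shared in 12. Fewer sequences give fewer chances of a match, so the percentages are not comparable as they stand, and no test was made.

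Use of TRBV12-1, TRBV12-2 and TRBV16, looked at together after their values were seen, varied between mice of a genotype. The mouse with the least TRBV12-1 among its public clones was replicate 4 in each of the 4 genotypes, at 1.79% (β5t-KO), 1.95% (β5i-KO), 3.14% (WT) and 4.85% (BIT). TRBV12-2 was also lowest of its genotype there, except in β5t-KO mice, in which it was 3.21% in replicate 4 and 2.78% in replicate 2. TRBV16 was highest of its genotype in replicate 4 at 21.8% (β5t-KO), 21.2% (β5i-KO) and 20.4% (WT), and in BIT mice it was 19.1% in replicate 4 and 19.4% in replicate 5. The labels name no litter, cage or batch behind a replicate number, and whether one lies behind these values was not tested.

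The 2 libraries too small to be used held next to nothing. The single molecule of WT replicate 5 was a public sequence, and 1 of the 11 sequences of β5t-KO replicate 5 was.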
